A study of Mus musculus with 2 samples.

Results

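The genes described here are 10 members of the platelet-derived growth factor (PDGF) and fibroblast growth factor (FGF) systems: the receptors Pdgfra, Pdgfrb, Fgfr1 and Fgfr2 and the ligands Pdgfa, Pdgfb, Pdgfc, Pdgfd, Fgf2 and Fgf7. They were chosen by symbol from the deposited table of gene counts, where all 10 were found among 24532 genes, each in a single row. Messenger RNA had been sequenced from mouse cardiac myofibroblasts, the contractile, matrix-secreting fibroblasts of injured heart. The cells of each group had been isolated 3 days after a myocardial infarction in mice of the C57BL/6 strain, and were grown in medium with 10% serum. They were transfected with 12.5 nM of an siRNA against Bcat1 (siBcat1) or with 12.5 nM of a control siRNA (siControl), and then kept in culture for 72 hours. Each group had 1 library, and the labels do not say how many hearts or cultures went into it. No spread between replicates could therefore be measured, no test was made, and every difference below is a difference between these 2 libraries.

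PDGF ligands are secreted as disulphide-linked dimers that bring together receptor tyrosine kinases of the PDGF family. PDGF-A and PDGF-C dimers act mainly on PDGFR-alpha, PDGF-D dimers mainly on PDGFR-beta, and PDGF-B dimers on both. FGF ligands bind their receptor kinases together with heparan sulphate chains of the cell surface and matrix, and both families signal through adaptors, the RAS and MAP kinase cascade and phosphoinositide 3-kinase. In the heart, PDGFR-alpha is a usual marker of resident fibroblasts, PDGFR-beta is found on pericytes, smooth muscle cells and activated fibroblasts, and both families are known as mitogens of fibroblasts.

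The siBcat1 library held 104581819 counts and the siControl library 127309329 counts. After scaling for library composition, 1 CPM (the unit of scaled counts, relative to library size) stood for 101 counts in siBcat1 and 131 counts in siControl. The target of the siRNA, Bcat1, had 99 counts in siBcat1 and 8891 in siControl, a log2 fold of -6.11 (95% counting interval -6.41 to -5.83). Fibroblast markers were abundant in both libraries, with all 10 listed genes above 5 CPM, among them Col1a1 at 1071 TPM in siBcat1 and 3869 TPM in siControl. Vim had 5566 and 5343 TPM and S100a4 10315 and 5909 TPM in the same order. In scaled counts, 7 of the 10 listed genes were lower in siBcat1 and 3 higher, with Vim and S100a4 among the higher ones. Intervals given below cover counting error only and are too narrow where reads are PCR copies of one another. Differences are given as the log2 fold, siBcat1 over siControl, in scaled counts, with a fold of 1.5 (0.585 on the log2 scale) as a rule of size.

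Of the 10 genes, 8 reached the minimum of 5 CPM averaged over the libraries, and Fgf2 and Pdgfb did not. Among these 8, Pdgfrb and Fgfr2 were lower in siBcat1 by at least 1.5-fold, Fgf7 was higher by as much, and 5 lay between. In the whole table, 9935 genes had at least 5 CPM; 25.6% of them were lower by at least 1.5-fold and 17.6% higher, so 2 and 1 of 8 are close to the background shares. The balance over all genes, 2544 lower and 1750 higher, turned to 2058 lower and 2321 higher with upper-quartile factors. The median log2 fold of the 8 genes was -0.43, against -0.06 for all genes. At 2-fold, only Pdgfrb among the 8 was lower and none was higher, with 13.0% of all genes lower and 5.58% higher.

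**Figure D1:**
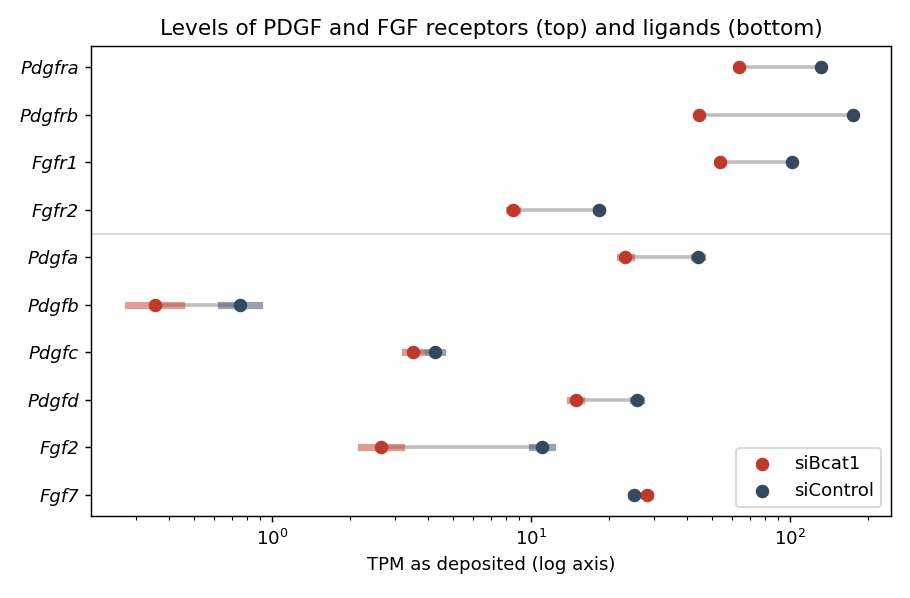
TPM values as deposited (horizontal log axis) for each receptor and ligand in siBcat1 (red) and siControl (dark), with pale bars for 95% counting intervals, 1 library a group. The Pdgfrb points lie far apart, at 44.6 and 175.8 TPM, while Fgf7 is the single gene with its siBcat1 point to the right.

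Levels between genes are compared in TPM, the authors' abundances per transcript length. In siBcat1 the order ran from Pdgfra (63.8 TPM) through Fgfr1 (53.6), Pdgfrb (44.6), Fgf7 (28.2), Pdgfa (23.2), Pdgfd (14.9), Fgfr2 (8.52), Pdgfc (3.51) and Fgf2 (2.64) down to Pdgfb (0.355). In siControl it ran from Pdgfrb (175.8 TPM) through Pdgfra (131.7), Fgfr1 (102), Pdgfa (44.4), Pdgfd (25.8), Fgf7 (25.1), Fgfr2 (18.3), Fgf2 (11.0) and Pdgfc (4.28) down to Pdgfb (0.756). Pdgfrb thus stood 3rd in siBcat1 and 1st in siControl, and Fgf7 4th and 6th. Pdgfd and Fgf7 in siControl were the only neighbours in either order whose counting intervals overlapped. Counting intervals leave out the choice of length, however. Counts and TPM imply lengths of 1020 bases for Pdgfa and 699 for Fgf2, beside annotated lengths of 2060 and 5973. The places of both genes, and of genes near them in the order, Fgf7 and Pdgfd among them, depend on those short lengths. TPM values of 9 of the 10 genes were lower in siBcat1, as were those of 78.8% of all genes of at least 5 CPM, and the median log2 ratio of TPM over those genes was -0.57.

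Transcript length went with the folds across the whole table. A smooth curve of log2 fold on annotated transcript length took up 37.6% of the variance of the folds over 9901 genes. The receptors have long transcripts, of 3817 bases (Fgfr2), 4046 (Fgfr1), 5407 (Pdgfrb) and 6549 (Pdgfra), and the curve passed through -0.31, -0.36, -0.62 and -0.81 at those lengths. Each fold is therefore also given with the curve subtracted, called length-adjusted. After this step 14.3% of all genes were at least 1.5-fold lower and 12.8% at least 1.5-fold higher, and among the 8 members again 2 were lower and 1 higher, but the lower ones were Pdgfrb and Pdgfa. What lies behind the trend was not tested.

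**Figure D2:**
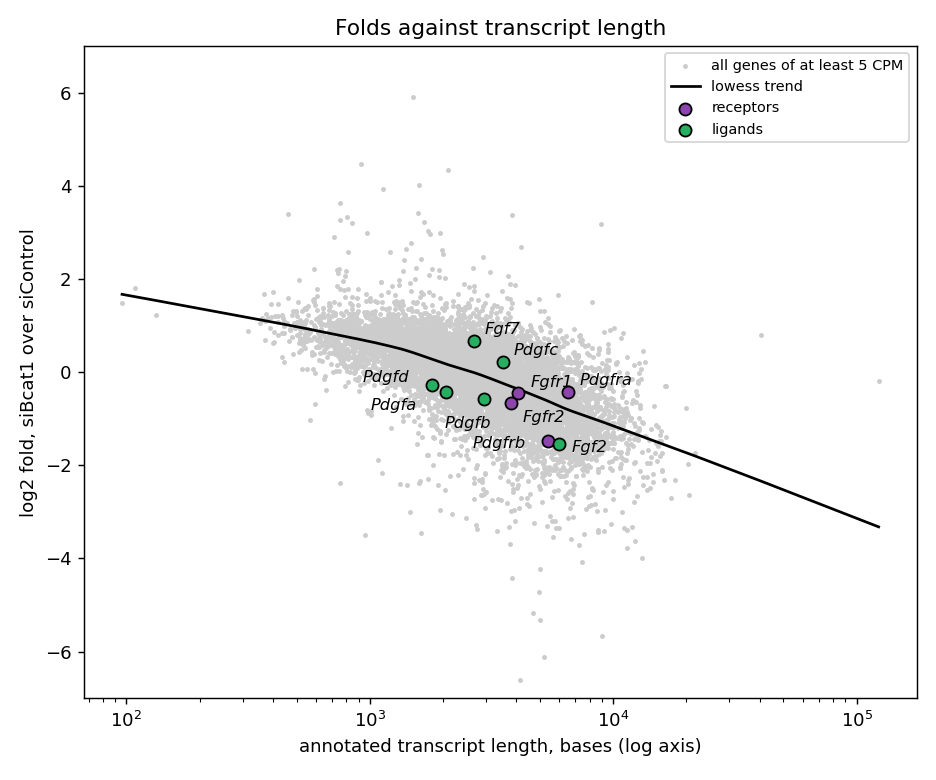
Log2 fold, siBcat1 over siControl (vertical axis), against annotated transcript length in bases (horizontal log axis) for all genes of at least 5 CPM (grey), with the lowess trend (line), receptors (purple) and ligands (green). Pdgfra lies above the trend at its length (length-adjusted 0.38) and Pdgfrb below it (length-adjusted -0.85).

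The PDGF receptors differed from each other in both level and fold. Pdgfrb, the receptor of PDGF-B and PDGF-D (chromosome 18, 61045127 to 61085067, plus strand, GRCm38), had 16737 counts (165 CPM) in siBcat1 and 60256 counts (458 CPM) in siControl. Its log2 fold was -1.47 (interval -1.497 to -1.448), 2.77-fold lower, and 5.41% of all genes of at least 5 CPM had a lower fold. The length-adjusted value was -0.85, at percentile 7.54 of the length-adjusted values of those genes, and the direction was the same under every scaling tried. Pdgfra, the receptor used as a fibroblast marker (chromosome 5, 75151322 to 75198206, plus strand), had 28975 counts (286 CPM) in siBcat1 and 50702 counts (386 CPM) in siControl. Its log2 fold of -0.43 (interval -0.45 to -0.41) lay within 1.5-fold, and with the length trend removed it had the opposite sign, 0.38, at percentile 77.7. The sign of Pdgfra thus turned with the length trend, while its difference from Pdgfrb kept its sign with and without it.

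Within a library the scaling factor cancels between genes, so the pair can be set against each other directly. The log2 fold of Pdgfra exceeded that of Pdgfrb by 1.04 (interval 1.01 to 1.07), by 1.23 after length adjustment and by 0.93 in TPM. Pdgfra made up 58.8% of the summed TPM of the PDGF receptors in siBcat1 and 42.8% in siControl. The sum itself was 108 TPM in siBcat1 and 307 TPM in siControl.

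Because Pdgfrb also marks pericytes and smooth muscle cells, mural cell markers are set beside it. All 8 listed mural genes were detected, 5 of them lower and 3 higher in siBcat1, and their summed level was 21.1 TPM in siBcat1 and 137 TPM in siControl. Mcam, an adhesion molecule of mural and endothelial cells, accounted for most of that sum, with 12.9 TPM in siBcat1 and 109 TPM in siControl (log2 fold -2.57). Notch3, a receptor of mural cells, had 4.88 TPM in siBcat1 and 20.9 TPM in siControl (log2 fold -1.60), and Des had 1.68 and 3.64 TPM. The remaining mural markers were divided. Cspg4 and Myh11 had a lower scaled count in siBcat1, as Pdgfrb did, whereas Rgs5, Kcnj8 and Abcc9 had a higher one. Cspg4 had 114 counts in siBcat1 and 666 in siControl, a log2 fold of -2.17 (interval -2.47 to -1.88). Myh11 had 33 and 141 counts (log2 fold -1.72) and Abcc9 60 and 40 counts (log2 fold 0.96). Rgs5 had 264 counts in siBcat1 and 283 in siControl, a log2 fold of 0.28 (interval 0.03 to 0.52), and Kcnj8 had 58 and 22 counts, a log2 fold of 1.77 (interval 1.04 to 2.55). The part of these genes in the Pdgfrb difference was not tested. In bulk RNA, fewer cells of a type and less RNA per cell cannot be told apart.

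The FGF receptors differed from each other by little. Fgfr1, the main FGF receptor of mesenchymal cells (chromosome 8, 25518759 to 25575718, plus strand), had 17958 counts (177 CPM) in siBcat1 and 31718 counts (241 CPM) in siControl, a log2 fold of -0.45 (interval -0.47 to -0.42). Its length-adjusted value was -0.09. Fgfr2 (chromosome 7, 130162451 to 130266808, minus strand), whose splice forms differ in the ligands they bind, had 2906 counts (28.7 CPM) in siBcat1 and 5931 counts (45.1 CPM) in siControl. Its log2 fold of -0.65 (interval -0.72 to -0.59) was 1.57-fold lower, just past the rule of size, and fell back within it with the length trend removed (-0.34) and under upper-quartile scaling (-0.53).

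The fold of Fgfr1 exceeded that of Fgfr2 by 0.21 (interval 0.14 to 0.28). Fgfr1 took 86.3% of their summed TPM in siBcat1 and 84.8% in siControl, so the make-up of this pair was nearly alike in the libraries. Fgfr1 and Pdgfra had almost the same fold, with a difference of -0.01 (interval -0.05 to 0.02), although length adjustment set them -0.46 apart.

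**Figure D3:**
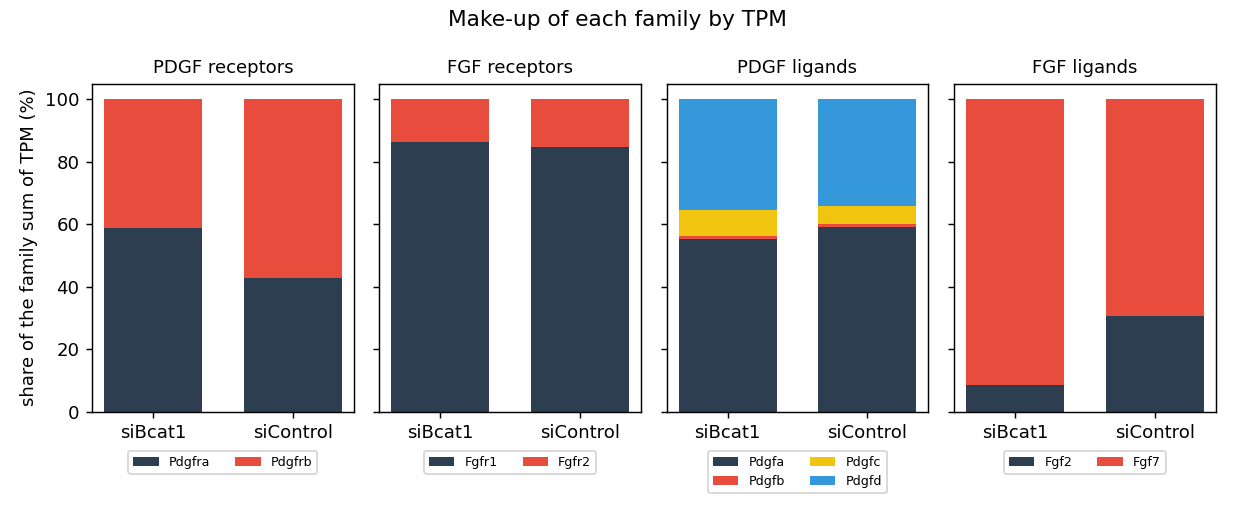
Share of each gene in the summed TPM of its family (vertical axis, percent), siBcat1 left and siControl right, 1 library each. The Pdgfra share is 58.8% and 42.8%, and the Fgf7 share 91.4% and 69.5%, while the FGF receptor and PDGF ligand bars differ less.

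For receptors with several RefSeq transcripts, the ratio of count to TPM gives the average length that the authors' quantification assigned to a gene, and a shift in it between libraries reflects a change in the mix of transcripts as quantified. Pdgfra, counted over 5 accessions, had an implied length of 6567 bases in siBcat1 and 6089 bases in siControl, a log2 shift of 0.11 relative to the median gene. Fgfr2, with 3 accessions, had 4929 and 5127 bases, a shift of -0.06, and Fgfr1, also with 3, a shift of -0.02. Among the 3634 genes of at least 5 CPM with more than 1 accession, 5.89% shifted by at least 0.1 in either direction, so Pdgfra was among the genes with the larger shifts. Pdgfrb, with 2 accessions, shifted by less than 0.001.

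The ligands were divided in direction, and Fgf7 and Fgf2 lay at opposite ends. Fgf7, also known as keratinocyte growth factor, is made by mesenchymal cells and acts on epithelial cells (chromosome 2, 126034658 to 126091185, plus strand). It had 5217 counts (51.5 CPM) in siBcat1 and 4250 counts (32.3 CPM) in siControl, a log2 fold of 0.67 (interval 0.61 to 0.73), 1.59-fold higher. It was the one member for which TPM too was higher, at 28.2 TPM in siBcat1 and 25.1 TPM in siControl. At 2672 bases its transcript lies where the length trend is near 0, and the length-adjusted value was 0.68, at percentile 90.0. Scaling by library totals put it just inside the rule of size, at 0.579 against 0.585, and in TPM its log2 ratio was 0.17.

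Fgf2, basic FGF, a mitogen for fibroblasts and endothelial cells (chromosome 3, 37348477 to 37410106, plus strand), had 128 counts (1.26 CPM) in siBcat1 and 486 counts (3.70 CPM) in siControl. Its log2 fold of -1.55 (interval -1.84 to -1.27), 2.93-fold lower, was the lowest of the 10, with an interval that reaches that of Pdgfrb, and the gene lies below the expression minimum. With the trend on the annotated length of 5973 bases removed it had -0.82. Its counts and TPM imply a much shorter model of 699 bases, and with the trend on implied length removed it had -2.36. GENCODE lists Fgf2 transcripts of 257 to 5973 bases with coding parts of up to 462 bases. The size of the Fgf2 difference therefore depends on which length is taken, whereas its direction did not.

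Fgf2 overlaps Nudt6 on the opposite strand over 5197 bases. Nudt6 had 290 counts in siBcat1 and 279 in siControl, a log2 fold of 0.43. Whether strand was used in counting is not given in the sources used here, so reads of the overlap cannot be told apart with certainty. Fgf7 lies within Fam227b, which is on the opposite strand, and Fam227b had 0 counts in either library. Noncoding antisense models that have no row in the count table overlap Pdgfra, Pdgfa, Pdgfb, Pdgfc and Fgf2 as well. On the same strand as Fgf2, the processed transcript Gm43439 overlaps it over 56390 bases and was not among the counted genes.

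The fold of Fgf7 exceeded that of Fgf2 by 2.22 (interval 1.93 to 2.51), by 1.504 after adjustment on annotated length and by 3.04 on implied length. Fgf7 made up 91.4% of their summed TPM in siBcat1 and 69.5% in siControl. In scaled counts its share was 97.6% in siBcat1 and 89.7% in siControl, so the difference in share was 7.87 percentage points, beside 21.9 in TPM. The sum of both genes turned direction with the unit, at 30.8 TPM in siBcat1 and 36.1 TPM in siControl but 52.8 CPM in siBcat1 and 36.0339 CPM in siControl. The TPM of Fgf2, and with it the TPM share, rests on the short implied length given above.

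Among the PDGF ligands, Pdgfa and Pdgfd were the most abundant. Pdgfa, the chain of the PDGF-AA dimer (chromosome 5, 138976014 to 139000792, minus strand), had 1634 counts (16.1 CPM) in siBcat1 and 2861 counts (21.8 CPM) in siControl. Its log2 fold was -0.43 (interval -0.52 to -0.34). Removal of the length trend moved Pdgfa past the rule of size, to -0.60 on the annotated length of 2060 bases and to -1.07 on the implied length of 1020 bases. Pdgfd, which is secreted in latent form and opened by proteolysis (chromosome 9, 6168363 to 6534284, plus strand), had 1852 counts (18.3 CPM) in siBcat1 and 2932 counts (22.3 CPM) in siControl. Its log2 fold of -0.29 (interval -0.37 to -0.20) became -0.57 with length adjustment, so both of these ligands lay below the trend at their lengths.

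Pdgfc, the other latent ligand and an agonist of PDGFR-alpha (chromosome 3, 81036416 to 81214040, plus strand), went the other way. It had 855 counts (8.44 CPM) in siBcat1 and 953 counts (7.25 CPM) in siControl, a log2 fold of 0.22 (interval 0.08 to 0.35), and 0.46 after length adjustment. In TPM it was lower, with 3.51 in siBcat1 and 4.28 in siControl, a log2 ratio of -0.29, nearer to 0 than the median ratio of all genes (-0.57). The fold of Pdgfc exceeded that of Pdgfa by 0.65 (interval 0.49 to 0.81) and that of Pdgfd by 0.51 (interval 0.35 to 0.66), and both differences were larger after length adjustment, at 1.06 and 1.03. Its share of the summed TPM of the PDGF ligands was 8.38% in siBcat1 and 5.69% in siControl.

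Pdgfb, the chain of PDGF-BB (chromosome 15, 79995865 to 80024614, minus strand), is known as a product of platelets and endothelial cells. It had 73 counts (0.721 CPM) in siBcat1 and 141 counts (1.07 CPM) in siControl, below the minimum in each library. Its log2 fold of -0.57 had a wide interval, -1.002 to -0.156, and its difference from the fold of Pdgfa could not be shown at this depth (0.14, interval -0.27 to 0.56). Endothelial markers, 4 of 8 lower and 4 higher, summed to 33.2 TPM in siBcat1 and 34.7 TPM in siControl, led by Tek with 9.93 and 14.9 TPM, Egfl7 with 11.6 and 9.42 TPM and Emcn with 6.94 and 4.21 TPM. The 5 platelet markers were all higher in siBcat1, with sums of 86.5 TPM in siBcat1 and 20.1 TPM in siControl. Only 2 of them, Pf4 and Gp1bb, reached 5 CPM. Ppbp had 14 and 11 counts, with an interval on both sides of 0 (-0.52 to 2.01). Pf4 had 2122 counts in siBcat1 and 597 in siControl and Gp1bb 4653 and 371 counts, and Gp1bb overlaps Sept5 on the same strand over 1902 bases. Itga2b had 1.38 and 0.766 TPM, and the part of these cell types in the Pdgfb values was not tested.

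**Figure D4:**
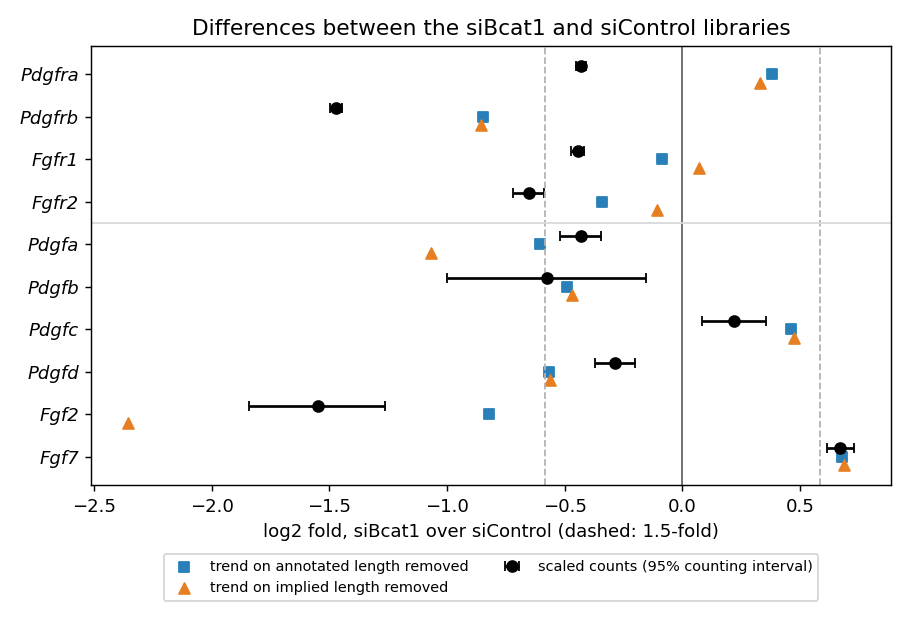
Log2 fold, siBcat1 over siControl (horizontal axis), of each receptor and ligand in scaled counts (black, with 95% counting interval) and with the trend on annotated length (blue) or implied length (orange) removed; dashed lines mark 1.5-fold. Pdgfrb and Fgf2 stay at the left and Fgf7 at the right in all 3 versions, whereas Pdgfra changes sides.

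Promoter sequence is shown for the ligands with higher scaled counts in siBcat1, Fgf7 and Pdgfc, and for the one with the lowest fold, Fgf2, so that their start sites can be compared. Each run holds 250 bases before and 50 bases after a RefSeq start site, 5′ to 3′ on the gene's strand, on GRCm38.p6. The windows are chr2:126034408-126034707 for Fgf7, chr3:81036166-81036465 for Pdgfc and chr3:37348403-37348702 for Fgf2. Capitals mark matches, on either strand, to the motifs searched: the TATA box (TATAAA), the CCAAT box, the GC box (GGGCGG), the AP-1 motif (TGANTCA), the TEAD motif (CATTCC) and the CArG box of serum response factor.
Fgf7: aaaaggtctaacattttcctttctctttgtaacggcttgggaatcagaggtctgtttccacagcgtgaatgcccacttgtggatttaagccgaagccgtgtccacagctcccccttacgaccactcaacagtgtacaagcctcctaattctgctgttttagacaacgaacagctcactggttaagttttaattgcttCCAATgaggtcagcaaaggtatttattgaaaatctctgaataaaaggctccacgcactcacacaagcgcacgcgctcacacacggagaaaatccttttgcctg
Pdgfc: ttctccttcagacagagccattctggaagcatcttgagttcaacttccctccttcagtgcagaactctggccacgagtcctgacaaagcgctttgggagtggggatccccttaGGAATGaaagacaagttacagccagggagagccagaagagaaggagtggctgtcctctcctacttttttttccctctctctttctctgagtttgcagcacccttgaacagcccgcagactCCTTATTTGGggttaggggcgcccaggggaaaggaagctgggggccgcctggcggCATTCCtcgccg
Fgf2: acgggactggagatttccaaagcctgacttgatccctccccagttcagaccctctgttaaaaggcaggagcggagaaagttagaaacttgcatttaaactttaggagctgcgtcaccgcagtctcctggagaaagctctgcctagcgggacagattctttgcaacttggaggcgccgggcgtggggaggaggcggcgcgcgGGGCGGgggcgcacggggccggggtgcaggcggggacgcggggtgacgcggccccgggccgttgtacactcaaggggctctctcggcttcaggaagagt
Fgf7 held a CCAAT match 53 bases before the start site, a motif found in 37.4% of 32851 promoters of this length. Fgf2 held a GC box 49 bases before the start site of its window, a motif found in 35.7% of promoters. That start site and the GC box both lie inside the Fgf2 gene span given above, which begins at 37348477. The Fgf7 and Pdgfc windows are set on the first base of their gene spans. Pdgfc held a CArG box 17 bases before the start site, found in 1.63% of promoters, and TEAD matches 137 bases before and 38 bases after it, a motif present in 14.7%. The GC content of the windows was 45.7% for Fgf7, 55.0% for Pdgfc and 62.7% for Fgf2, beside a median of 52.7% for all promoters. The motif search covered 7 of the 10 genes, in 8 windows, none of which held the AP-1 motif, present in 7.81% of promoters. Pdgfrb was left out of this search, and Fgfr1 and Pdgfb were not covered either, so their promoters were not tested for any motif. A match describes the letters of the window and not the binding of a factor.

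The rest of the FGF family was scarcely expressed. Of the 20 other FGF family genes listed, 10 had counts and 10 were at 0 in both libraries, and none exceeded a mean of 1.42 CPM. Their summed level was 3.26 TPM in siBcat1 and 4.65 TPM in siControl, well under that of Fgf7 alone. In scaled counts 4 of the 10 detected genes were lower in siBcat1 and 6 higher, all of them far below 5 CPM. Fgf1, which binds all FGF receptors, had 93 counts in siBcat1 and 189 in siControl, a log2 fold of -0.65. Fgf18 had 112 and 128 counts, a log2 fold of 0.18 (interval -0.20 to 0.56).

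Among the 12 other receptors and co-receptors, 4 reached 5 CPM, with 1 at least 1.5-fold lower, none higher and a median of 0.05, beside 25.6% lower and 17.6% higher among all genes. Fgfrl1, an FGF receptor that lacks a kinase domain, was the lower one, with 30.7 TPM in siBcat1 and 81.7 TPM in siControl, a log2 fold of -0.90 (interval -0.95 to -0.86) and -0.99 length-adjusted. Its TPM was thus above that of Fgfr2 in each library. The length-adjusted median was -0.02. Flrt2, an FGF receptor partner with a transcript of 7099 bases, had 0.22 and, length-adjusted, 1.10, and the co-receptor Nrp1 had -0.10 and 0.16. Pdgfrl, a PDGF receptor-like gene, had 0.21 and -0.19 length-adjusted. Of the 9 genes of this list with counts, 5 were lower and 4 higher in siBcat1 in scaled counts. Below the minimum, Fgfr3 had 106 counts in siBcat1 and 184 in siControl, a log2 fold of -0.42 and -0.04 length-adjusted. Fgfr4 had 15 and 120 counts (log2 fold -2.62). Fgfbp3 had 333 and 286 counts (log2 fold 0.60) and Flrt3 153 and 180 counts (log2 fold 0.14).

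The enzymes that build and trim heparan sulphate, the co-receptor of FGF ligands, were lower as a list. Of 12 listed, 10 reached 5 CPM and 7 of these were at least 1.5-fold lower, beside 25.6% of all genes, and none was higher. Their median was -0.80, with a median transcript length of 4603 bases, and -0.35 after length adjustment, with 3 of 10 lower, beside 14.3% of all genes. Ndst1, the N-deacetylase and N-sulphotransferase, had 11.0 TPM in siBcat1 and 65.9 TPM in siControl (log2 fold -2.10, length-adjusted -1.36). The endosulphatase Sulf1 had 26.9 and 120 TPM (-1.66, length-adjusted -1.18) and the 6-O-sulphotransferase Hs6st2 had 5.02 and 18.3 TPM (-1.38, length-adjusted -0.95). The related Sulf2 had -0.85 and, length-adjusted, -0.38.

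The proteases that process PDGF chains were measured in 6 of 6 cases, with 4 at least 1.5-fold lower and none higher, beside 25.6% and 17.6% of all genes. Length-adjusted, 1 was lower (Plau) and 1 higher, beside 14.3% and 12.8% of all genes, and the list median of -0.69 became -0.33. The higher one was Pcsk6, with a log2 fold of 0.46 and 0.88 length-adjusted. Plau, the urokinase that can activate PDGF-D, had 9.90 TPM in siBcat1 and 26.5 TPM in siControl, a log2 fold of -0.92 and -0.999 length-adjusted. Furin, the convertase of the PDGF-A and PDGF-B precursors, had 35.9 and 86.3 TPM (-0.76), Pcsk5 2.06 and 7.25 TPM (-1.31) and Pcsk7 9.02 and 19.4 TPM (-0.61). Length-adjusted, these last 3 lay within 1.5-fold, at -0.36, -0.51 and -0.29.

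Of the adaptors and proximal effectors of the receptors, 21 of 22 reached 5 CPM, with 9 of them past 1.5-fold lower, 2 past it higher and 10 inside, beside 25.6% and 17.6% of all genes. The list median of -0.45 turned to 0.06 after length adjustment, where 3 were past 1.5-fold lower and 6 past it higher, beside 14.3% and 12.8% of all genes. Pik3r1, Cbl and Plcg1 were past 1.5-fold lower with and without the trend. Crk and Nck1 were past it higher with and without the trend, at 0.61 and 0.64 (length-adjusted 0.89 and 0.74). Pik3r1, the regulatory p85-alpha subunit of phosphoinositide 3-kinase, had 301 counts in siBcat1 and 7272 in siControl, a log2 fold of -4.22 (interval -4.39 to -4.05) and -3.67 length-adjusted. Cbl, the ubiquitin ligase that marks activated receptor kinases for degradation, had 169 and 3020 counts, a log2 fold of -3.78 (interval -4.02 to -3.56) and -2.52 length-adjusted. Plcg1, the phospholipase bound by both receptor families, had -1.31 and -0.86. Stat3 had -0.76 and lay within 1.5-fold length-adjusted, at -0.31.

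The RAS and MAP kinase cascade had 12 of 13 genes above 5 CPM, with 3 at least 1.5-fold lower, 2 higher and a median of -0.03, so that its counts were close to the 25.6% and 17.6% of all genes. Mapk3, which encodes ERK1, had 373 TPM in siBcat1 and 307 TPM in siControl, a log2 fold of 0.79 and 0.51 length-adjusted. Braf had -1.12 and Rps6ka3 -0.90, and both lay at about 0 after length adjustment (0.01 and -0.01). The genes that the cascade induces went both ways, with 2 of 14 at least 1.5-fold lower, 3 higher and a median of -0.13, beside the same shares of all genes. The early response factors Egr1 and Myc had 0.93 and 0.94 (length-adjusted 1.04 and 0.86), whereas Egr3 and Etv4 had -1.88 and -0.79 (length-adjusted -1.55 and -0.86).

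Feedback inhibitors of receptor signalling were found for 12 of 13 listed genes and 10 reached 5 CPM, with 4 past 1.5-fold lower, 1 past it higher and 5 inside, beside 25.6% and 17.6% of all genes. Length-adjusted, 3 were lower and 1 higher, beside 14.3% and 12.8%, and the median of -0.54 became -0.23. Spred2, which binds and restrains RAF, had 466 counts in siBcat1 and 3773 in siControl, a log2 fold of -2.64 (interval -2.78 to -2.50) and -2.58 length-adjusted. Il17rd, an inhibitor of FGF signalling, had -1.82 and, length-adjusted, -0.82, Spred3 had -1.05 and -0.69, and Spry4 had -0.72 and -0.22.

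**Figure D5:**
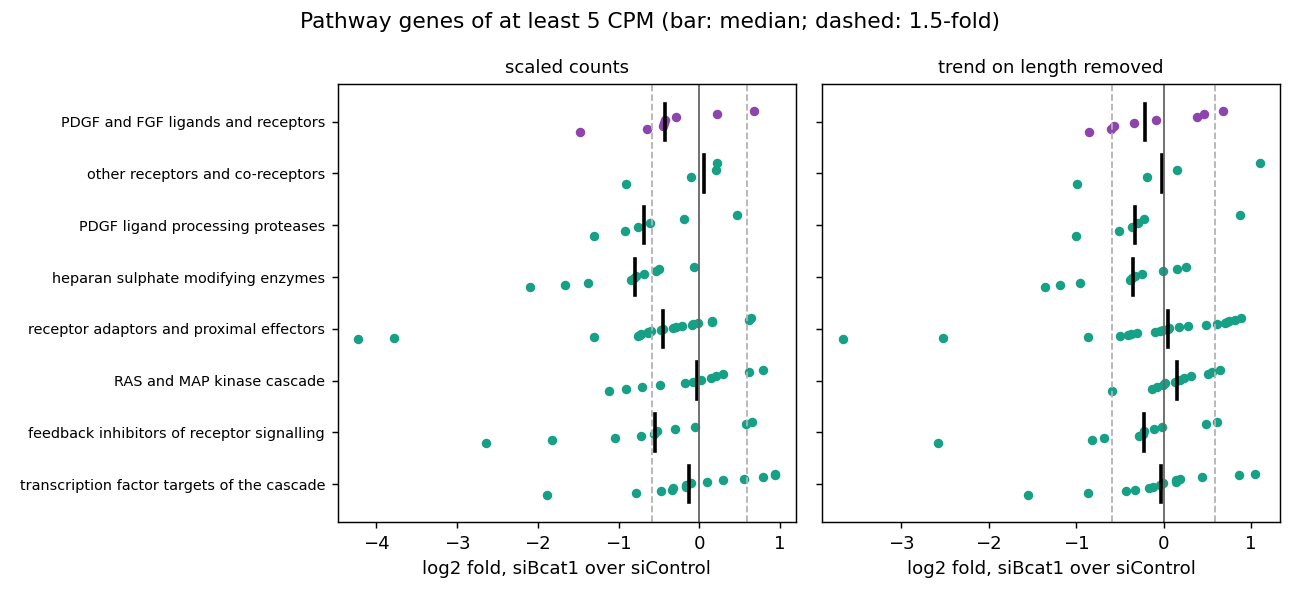
Log2 fold, siBcat1 over siControl (horizontal axes), of each gene of at least 5 CPM in the PDGF and FGF set (purple) and the other lists of the pathway (green), in scaled counts (left) and with the length trend removed (right); bars are list medians. The heparan sulphate list has a median of -0.80 on the left and -0.35 on the right, and the adaptor list -0.45 and 0.06.

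In each of the macrophage, cardiomyocyte and epicardial marker lists, 1 gene reached 5 CPM. In scaled counts 1 macrophage marker was lower in siBcat1 and 5 were higher. Of the cardiomyocyte markers 2 were lower and 1 higher, and of the epicardial markers 4 were lower and 1 higher. Of 9 macrophage markers, Ptprc, Adgre1 and C1qa were at 0 in both libraries, and the sum was 35.1 TPM in siBcat1 and 15.0 TPM in siControl, mostly Lyz2 with 29.5 and 10.7 TPM, beside Cd14 with 2.83 and 1.91 TPM and Cd68 with 1.79 and 0.827 TPM. Of 7 cardiomyocyte markers, Myh6, Actn2, Ryr2 and Nppa were at 0 in both libraries, and Tnnt2 had 12.6 TPM in siBcat1 and 80.6 TPM in siControl. Epicardial markers summed to 14.3 TPM in siBcat1 and 32.0 TPM in siControl, with Upk3b at 405 and 2320 counts, Upk1b at 253 and 975 counts and Krt19 at 766 and 186 counts. Their part in the values of the receptors and ligands was not tested.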

How the data were processed

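RNA was sequenced in 1 siBcat1 and 1 siControl library, grouped by the treatment label. FastQC, Trimmomatic, HISAT2, StringTie and build mm10 are named, without versions or roles, per the submitters' processing notes; neither strand use nor counting settings are named there. A stranded mRNA kit was used, per the labels' protocols. The deposited table gives raw counts, whole numbers of reads for every gene. The other deposited tables give TPM, which the authors computed; totals are 998120 TPM in siBcat1 and 998462 TPM in siControl.

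Counts were scaled with TMM factors (edgeR 4.0.16, R 4.3.3; 0.969 for siBcat1, 1.03 for siControl). Each log2 fold carries a 95% Clopper-Pearson interval (the siBcat1 count as a binomial share of both counts), and differences between folds have a normal 95% interval from the 4 counts. TPM intervals are exact Poisson. The expression minimum was 5 CPM, averaged over both libraries. A gene at 0 in 1 library has no finite fold, and none of the folds given is of such a gene. Length trends are lowess curves (fraction 0.3, 3 iterations, statsmodels 0.14.6) of log2 fold on log2 length, with lengths from GENCODE M21 (GRCm38) matched by RefSeq accession for 9902 of 9935 genes. Implied lengths are counts over TPM, calibrated on genes with 1 accession. Coordinates and promoters are RefSeq, GRCm38.p6. Calculations were tested on simulated data.

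The members, the 8 pathway lists and 7 marker lists, the length adjustment and the tests were chosen with earlier results of these data known. Named genes were the members, Bcat1 and up to 4 genes of each pathway list furthest from a log2 fold of 0. Of each marker list, 3 genes with the highest TPM were named. Added after their values were seen were Fgf1, Fgf18, Fgfr3, Fgfr4, Fgfbp3, Flrt3, Rgs5, Kcnj8, Abcc9, Cspg4, Myh11, Ppbp, Crk, Nck1 and Pcsk6. The values of 1 further gene, counted in its pathway list, are not reported here. With 2 libraries, no likeness of pattern between genes could be measured. Alternatives were other scalings (library totals, upper quartile, size factors of DESeq2 1.42.0), TPM with pseudocounts of 1 or 0.1, other minimums, and length trends.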

Additional observations from a re-analysis of the deposited data

How the results depend on the processing

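No paired analysis was possible because each group has 1 library, and for the same reason no library could be left out. At least 1.5-fold lower were 2 of the 8 measured members. The count was 1 with upper-quartile factors, 7 with log2(TPM + 1) and with log2(TPM + 0.1), and 1 at 2-fold. For the TPM versions the minimum was a mean of 5 TPM, so Fgf2 entered the 8 genes and Pdgfc left them. Of the 8 genes set by CPM, 6 were lower with log2(TPM + 1) and none was higher. At least 1.5-fold higher was 1 member; it was 0 with library totals, with either TPM version and at 2-fold. The members' median of -0.43 became -0.30 with upper-quartile factors, -0.21 with the length trend removed and -0.019 with the trend on implied length removed. Over the 8 genes set by TPM, the median was -0.97 and -0.99 with pseudocounts of 1 and 0.1. Of 9935 genes of at least 5 CPM, 2544 were lower and 1750 higher. The counts were 2058 lower and 2321 higher of 9938 genes with upper-quartile factors. They were 3825 lower and 375 higher of 8811 with log2(TPM + 1), and 3959 and 403 of 8811 with log2(TPM + 0.1). With no minimum they were 4742 and 3797 of 16044, and at 2-fold 1292 and 554 of 9935. Lower genes numbered 1546 of 6644 at a minimum of 20 CPM, 1416 of 9901 with the length trend removed and 1365 of 9933 on implied length. The counts thus rest on different numbers of genes. Signs turned for Pdgfra (0.38 and 0.33 with the trend on annotated or implied length removed), Fgfr1 (0.072 on implied length) and Pdgfc (-0.23 and -0.28 with TPM). The other 7 members kept their sign in every setting. Upper-quartile factors moved the median of all genes to 0.07 and log2(TPM + 1) to -0.47. Depth limits Pdgfb and Fgf2, and without replicates no difference can be set against the spread between cultures.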
